A study of Mus musculus with 8 samples.

Results

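Zic1, Zic2, Zic4 and Zic5 were examined in single-nucleus ATAC-seq libraries of the wild-type mouse embryonic forebrain. This assay inserts sequencing adapters into open chromatin, so that counts in a stretch of DNA measure how accessible it was. A peak is a stretch in which the authors' software called a concentration of insertions. The members were all peaks within 50 kb of the 4 gene bodies, merged over the samples, which gave 38 of 292532 merged regions. Of these 20 lay around the neighbouring genes Zic1 and Zic4 on chromosome 9 and 18 around Zic2 and Zic5 on chromosome 14. The counts assigned to the 4 genes, of 21951 protein-coding genes, and to the motifs named ZIC1 and ZIC4, of 579 motifs, were taken as well. The 8 libraries came from the cortex (CTX) and the 3 ganglionic eminences (GE), which are the medial one (MGE), the lateral one (LGE) and the caudal one (CGE), with 2 per region. All carry the genotype WT and the age E12.5, except CTX replicate 2, which is labelled E14.5. The labels do not say whether replicates came from separate litters, so p-values measure the spread between these libraries, which may be technical.

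The Zic genes encode zinc finger transcription factors related to the Gli factors of hedgehog signalling. In vertebrates they lie in head-to-head pairs, here Zic1 with Zic4 and Zic2 with Zic5. They are best known in the forebrain from the dorsal midline, the cortical hem, the septum and the meninges. Loss of ZIC2 in humans is a cause of holoprosencephaly, a failure to divide the forebrain at the midline, and deletions of ZIC1 with ZIC4 have been linked to Dandy-Walker malformation of the cerebellum.

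The promoter bases outside annotated untranslated exons are shown for the 3 members with an entry in the RefSeq table (GRCm38.p6), since the region around its start gave a large share of each gene's counts, 46.0% or more in every library. They are chr9:91365811-91366018 on the minus strand for Zic1, chr9:91368722-91368811 on the plus strand for Zic4 and chr14:122465678-122465908 on the minus strand for Zic5. Capitals mark matches, on either strand, to CAGCAGG and CAGCGGG, which occur in ZIC binding motifs, to the homeodomain core TAATTA and to the CCAAT box.
Zic1 promoter: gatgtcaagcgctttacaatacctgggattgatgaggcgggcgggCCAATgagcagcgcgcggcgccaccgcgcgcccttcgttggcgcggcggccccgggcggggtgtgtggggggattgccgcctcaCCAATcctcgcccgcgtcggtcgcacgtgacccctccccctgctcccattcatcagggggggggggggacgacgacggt
Zic4 promoter: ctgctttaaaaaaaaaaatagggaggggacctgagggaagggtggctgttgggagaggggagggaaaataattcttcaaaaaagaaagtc
Zic5 promoter: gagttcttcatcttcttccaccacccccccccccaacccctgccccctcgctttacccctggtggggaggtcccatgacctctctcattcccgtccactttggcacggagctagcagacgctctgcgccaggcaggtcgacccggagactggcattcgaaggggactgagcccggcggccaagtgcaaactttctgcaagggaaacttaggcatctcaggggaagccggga

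The Zic1 promoter held 2 CCAAT boxes, and no other match was found in the 300 bases of any of the 3 promoters. Of all 32851 promoters of that length 37.4% held CCAAT, 10.5% CAGCAGG, 5.65% CAGCGGG and 5.29% TAATTA. The 3 promoters differed in base composition. The Zic1 promoter was 65.3% G or C with 31 CpG dinucleotides, that of Zic5 62.7% with 15 and that of Zic4 46.0% with 8, against a median of 52.7% G or C over all promoters.

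Stretches of 300 bases from 3 distal regions follow. The first region was the only Zic region that passed the test of CTX against the eminences with all libraries. The others lacked a peak in some library, were not tested and were singled out after their values were seen. No region that passed for MGE against CGE is among the 3. The stretches are chr14:122453475-122453774, downstream of Zic5, chr14:122436954-122437253, within Gm5089, and chr9:91418359-91418658, in an intron of the long noncoding gene Gm29478. All are on the plus strand of GRCm38 and centred in the part that the largest number of libraries called as peak.
Zic5 downstream: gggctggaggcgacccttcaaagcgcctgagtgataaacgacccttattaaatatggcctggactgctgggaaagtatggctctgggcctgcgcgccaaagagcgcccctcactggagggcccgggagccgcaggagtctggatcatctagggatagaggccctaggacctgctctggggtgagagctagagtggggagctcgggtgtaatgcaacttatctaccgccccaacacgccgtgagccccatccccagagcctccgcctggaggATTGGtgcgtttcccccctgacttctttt
Gm5089: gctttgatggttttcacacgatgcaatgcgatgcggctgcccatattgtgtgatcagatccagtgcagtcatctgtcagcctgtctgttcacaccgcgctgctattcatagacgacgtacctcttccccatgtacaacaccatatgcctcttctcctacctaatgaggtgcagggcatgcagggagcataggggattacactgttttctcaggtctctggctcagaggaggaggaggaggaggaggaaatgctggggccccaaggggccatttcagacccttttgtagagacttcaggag
Gm29478: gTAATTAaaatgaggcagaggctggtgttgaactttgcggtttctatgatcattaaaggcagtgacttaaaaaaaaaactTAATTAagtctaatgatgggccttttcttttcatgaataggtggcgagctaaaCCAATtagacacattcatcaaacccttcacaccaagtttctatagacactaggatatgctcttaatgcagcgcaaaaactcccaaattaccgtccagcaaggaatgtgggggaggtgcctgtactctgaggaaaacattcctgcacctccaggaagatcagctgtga

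Of these, the stretch in Gm29478 held TAATTA at 2 places, against 9.78% of the 300-base centres of all regions tested with at least 1. It also held 1 CCAAT box, as did the stretch downstream of Zic5, where it lies on the minus strand. None of the 3 held CAGCAGG or CAGCGGG, which 13.2% and 4.41% of those centres did, and CCAAT was found in 31.7%.

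The 2 CTX libraries stood apart from each other before any Zic value was considered. Of the nuclei of CTX replicate 1, labelled E12.5, 93.7% fell into a glutamatergic neuron-like cluster (cluster 5; 95% exact interval 92.9 to 94.4%, which covers the counting of nuclei only). Of those of CTX replicate 2, labelled E14.5, 69.6% fell into cluster 6 (68.3 to 70.9%). Cluster 6 met the list of hem markers in 4 of 6 genes, but none of them was among its 10 leading genes, and it is called by its number. Clusters 0, 2, 3, 7 and 9 likewise had none of their markers among their 10 leading genes, and their class names rest on 5 to 8 raised markers of lists of 8 or 9. Cluster 4, called glutamatergic-like, had 4 of 8 markers raised. At a finer clustering (resolution 1) 1423 nuclei of CGE replicate 2 fell into a cluster with 2 of 9 progenitor markers raised. A further 1017 fell into a cluster with 3 of 8 glutamatergic markers raised. Neither cluster met the naming rule, so class names in that library depend on the resolution. The remaining nuclei of CTX replicate 2 included 589 cortical hem-like nuclei (cluster 8). The 10 leading genes of cluster 8 began with Folr1 and Sec31b and held the hem markers Wnt3a and Wnt8b. Another 230 nuclei of this library met the list of meningeal, mural and mesenchymal markers (cluster 9). The library labelled with the earlier age was thus the one made up mostly of neuron-like nuclei. The cause was not tested, and age and replicate cannot be told apart within CTX. Whether the age labels of these 2 libraries are right is in doubt and could not be settled here, and they are used only as the labels give them. The results for the Zic genes that rest on CTX are therefore given with and without each library.

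The libraries held 3465 to 6845 nuclei and 77387940 to 138873845 counts in peaks. Odd counts made up 9.54 to 10.4% of the nonzero entries of replicate 1 libraries and 5.17 to 5.85% of those of replicate 2 libraries, with each region once on either side. The order of MGE over LGE over CGE in the Zic1 and Zic4 counts held among the replicate 1 libraries and among the replicate 2 libraries. Of 38362 barcode strings, 881 occurred in 2 or more libraries. Peaks were called in each library on its own, and a region's count grows with the length called, so that covered lengths are given where they bear on a result.

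The Zic loci were covered by broad open regions. Of the 14 regions with a peak in all 8 libraries, which were the ones tested, 9 were wider than 95% of the 68274 regions tested, with widths of 5887 to 17041 bp against a median of 1533 bp. The widest, chr14:122470856-122487896, held the whole of Zic2 and overlapped 2610035F20Rik. The region over the facing starts of Zic1 and Zic4, chr9:91358808-91372066, was 13259 bp wide and the next, chr9:91376779-91390745, over later Zic4 starts, was 13967 bp wide. Of the remaining 24 regions 10 had a peak in a single library. CTX replicate 2 had a peak in 35 of the 38 regions and CTX replicate 1 in 26, and the GE libraries had one in 15 to 23. Of all merged regions CTX replicate 2 had a peak in 54.4%, while CTX replicate 1 had one in 60.1% and each GE library in 32.5 to 59.9%. These broad regions were not unusually rich in G and C, with 48.8% for the Zic1 and Zic4 start region against a median of 48.6%. Their ratio of observed to expected CpG was 0.537 for that region, 0.570 for the Zic2 region and 0.608 for the Zic5 start region, against a median of 0.267. It was lowest, at 0.294 and 0.340, in the broad regions chr9:91391467-91397353 and chr9:91398750-91406757.

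Among the eminences the Zic1 and Zic4 locus had the most counts in MGE and the fewest in CGE. Per covered kb, however, the locus as a whole had 7.64 and 6.32 CPM in MGE and 7.63 and 6.53 in LGE, which overlapped, against 3.85 and 3.26 in CGE. These locus values are relative to the counts in all peaks of a library. The start region, chr9:91358808-91372066, had 121 and 128 CPM in the MGE libraries, 94.1 and 121 in LGE and 46.1 and 54.8 in CGE, where CPM are counts per 1000000 counts in all regions tested. Both MGE libraries, and also both LGE libraries, lay above both CGE libraries, and 17.4% of all regions had both LGE libraries above both of CGE, while MGE replicate 1 and LGE replicate 2 were nearly level. In counts summed over a library, fewer nuclei with open chromatin and less signal per nucleus cannot be told apart. The 13967-bp region over later Zic4 starts had 119 and 116 CPM in MGE, 71.7 and 101 in LGE and 40.4 and 50.9 in CGE. The region downstream of Zic1, chr9:91349924-91358196, had 60.2 and 62.6 CPM in MGE, 39.5 and 49.2 in LGE and 23.0 and 24.9 in CGE. In all 7 tested regions of this locus both MGE libraries lay above both CGE libraries, where 19.1% of all regions tested did so. In 5 of the 7, both MGE libraries also lay above both LGE libraries, against 22.6% of all regions. The 2 farther regions named, chr9:91391467-91397353 and chr9:91398750-91406757, had 13.4 to 19.4 and 26.5 to 26.8 CPM in MGE against 1.19 to 6.08 and 9.95 to 15.5 CPM in CGE.

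The test of that order depended on whether both CTX libraries entered the fit. In edgeR's quasi-likelihood test on all 8 libraries, with Benjamini-Hochberg adjustment over all regions, none of the 14 regions was called for MGE against CGE, where 0.325% of all regions were. Of the 14, 3 had an unadjusted p under 0.05, as did 8839 of the 68274 regions tested. The start region had a log2 fold of 1.37 ± 0.46 (SE, unadjusted p = 0.0195, adjusted p = 0.260) and the region downstream of Zic1 1.43 ± 0.50 (adjusted p = 0.280). DESeq2, which called 6.61% of all regions, called the start region alone of the 14 (log2 fold 1.40, adjusted p = 0.0393). With an offset for the length covered by peaks in each library the fold of the start region was 0.88 (adjusted p = 0.186). In a fit of the 6 GE libraries alone edgeR called 4 of the 14 regions higher in MGE, against 3.56% of all regions. All 4 lay in the Zic1 and Zic4 locus. These were the start region (1.37, adjusted p = 0.00696), the region downstream of Zic1 (1.43, adjusted p = 0.00509), the region over later Zic4 starts (1.43, adjusted p = 0.00986) and chr9:91413495-91415175, in Gm29478 (0.97, adjusted p = 0.0206). The folds of these 4 were nearly the same with all 8 libraries and with either CTX library left out. No Zic region was called for MGE against LGE, where 0.694% of all regions were with all 8 libraries, or for LGE against CGE, where 0% were.

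Zic1 and Zic4 had the same order in the counts assigned to the genes, that is all peaks over the gene body or the 2 kb upstream. All 4 Zic genes had both MGE libraries above both CGE libraries in CPM, against 15.9% of genes tested. Per covered kb this held for Zic1 and Zic4 but not for Zic2 and Zic5. Zic4 had 241 and 249 CPM in MGE, 177 and 227 in LGE and 91.0 and 107 in CGE, relative to all counts assigned to genes. Zic1 had 124 and 194 CPM in MGE, 101 and 125 in LGE and 48.9 and 55.4 in CGE. The higher MGE value of Zic1 held an added peak. In MGE replicate 2 and in CTX replicate 2 the peak downstream of Zic1 reached into the gene and made up 32.9% and 33.6% of its count, and in no other library did it. Zic1 and Zic4 also shared their start region, which gave 46.0 to 56.4% of the Zic4 count, so the 2 genes were not measured independently. For MGE against CGE the log2 fold was 1.32 ± 0.49 for Zic4 (adjusted p = 0.744) and 1.61 ± 0.59 for Zic1 (adjusted p = 0.741), and neither passed the test, which called 0.0864% of 17357 genes. In the fit of the GE libraries alone neither was called (adjusted p = 0.0809 for Zic4 and 0.108 for Zic1), where 0.111% of genes were. With the covered-length offset these folds were 0.99 for Zic4 and 0.73 for Zic1, and for MGE against LGE they were -0.033 and -0.22.

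The Zic2 and Zic5 locus varied less among the eminences. Zic2, whose count came from a single region in every library, had 132 and 126 CPM in MGE, 88.3 and 138 in LGE and 76.3 and 110 in CGE. Those groups overlapped except for MGE over CGE. Zic5 had 65.5 and 50.6 CPM in MGE, 57.5 and 73.5 in LGE and 41.1 and 45.0 in CGE. For Zic5 the LGE and the MGE libraries overlapped, and all 4 of them lay above both CGE libraries. Both LGE libraries lay above both of CGE in 17.2% of genes tested. The log2 folds for MGE against CGE were 0.47 ± 0.41 for Zic2 (adjusted p = 0.813) and 0.44 ± 0.61 for Zic5 (adjusted p = 0.873). Of the 7 tested regions of this locus 4 had both MGE libraries above both CGE libraries and 2 had them below, as did 32.4% of all regions. One of the latter, chr14:122401770-122407821, which overlaps Clybl and Gm5089, had 27.8 and 30.8 CPM in MGE and 38.7 and 44.3 in CGE.

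**Figure D1:**
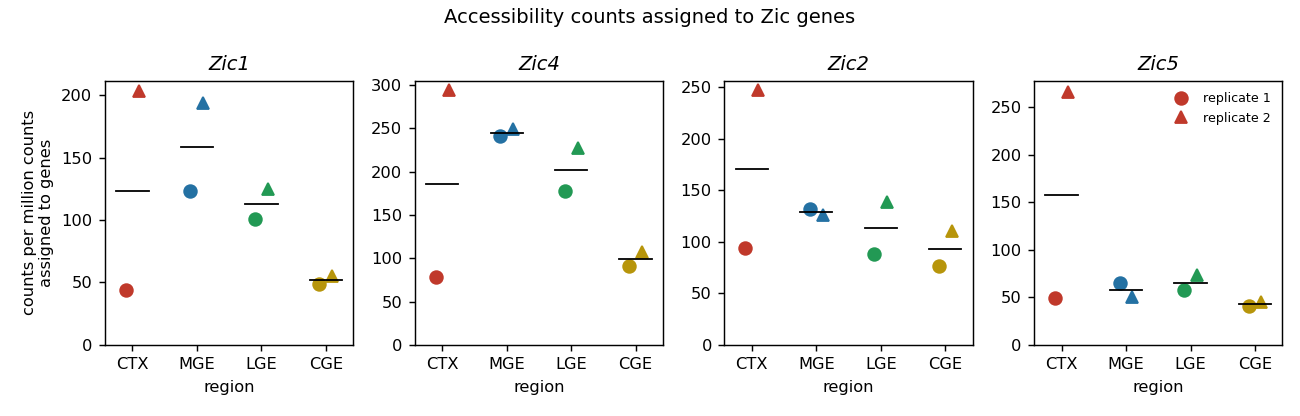
CPM of each Zic gene, relative to all counts assigned to genes (y axis), by region (x axis), with circles for replicate 1, triangles for replicate 2 and a bar at the mean of the 2 libraries. The CTX libraries lie far apart at every gene, at 43.7 and 204 CPM for Zic1, and the mean of CGE is the lowest among the eminences.

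**Figure D2:**
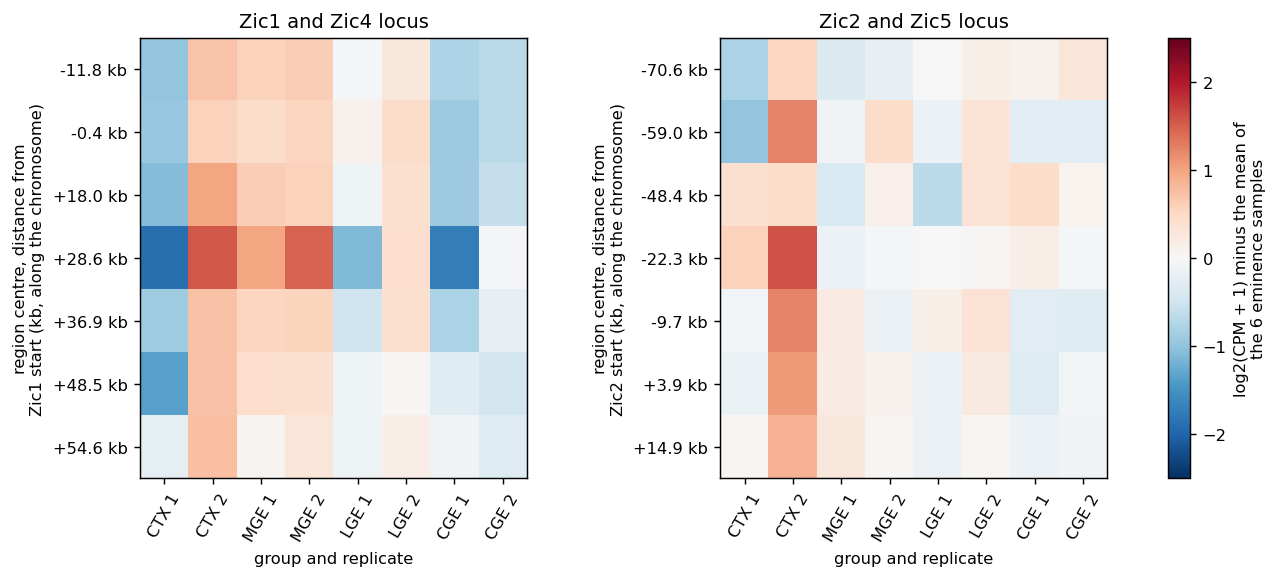
The 14 tested regions of the Zic loci (rows, placed by the distance of their centre from the Zic1 or Zic2 start in kb) in the 8 libraries (columns), coloured by log2(CPM + 1) minus the mean of the 6 eminence libraries. All 14 regions are higher in CTX replicate 2 than in CTX replicate 1, and the Zic1 and Zic4 rows are higher in MGE than in CGE.

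The contrast of CTX with the eminences asks how the dorsal forebrain differs from the ventral. For the Zic loci it had no single answer, because the CTX libraries lay far apart, for Zic1 and Zic4 on opposite sides of the eminences in CPM. For Zic1 the first CTX library had 43.7 CPM and the second 204, against a range of 48.9 to 194 over 6 GE libraries. Zic4 had 78.5 and 294 CPM, against 91.0 to 249. Both genes were thus below every GE library in CTX replicate 1 and above every GE library in CTX replicate 2. Per covered kb this held for Zic4, with 4.46 and 10.9 CPM in CTX against 4.50 to 9.90 in the eminences. It did not hold for Zic1, with 5.67 and 9.56 CPM in CTX against 5.28 to 11.27, so that both CTX libraries lay within the range. Zic2 had 94.3 and 248 CPM, against 76.3 to 138, and Zic5 49.4 and 266, against 41.1 to 73.5. For these the first library lay within the range of the eminences and the second above it.

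The gap between the CTX libraries was 4.66-fold for Zic1, 3.74-fold for Zic4, 2.62-fold for Zic2 and 5.39-fold for Zic5. On the log2(CPM + 1) scale the difference exceeded 1 for each of them, as it did for 3.50% of all genes tested, whose median difference was 0.10. The gaps came with longer peaks, as the peaks counted for Zic1 covered 7.71 kb in CTX replicate 1 and 21.3 kb in CTX replicate 2. Per covered kb the gap was 1.69-fold for Zic1, 2.44-fold for Zic4, 1.91-fold for Zic2 and 1.88-fold for Zic5. For Zic5 47.2% of the count in CTX replicate 2 came from the peak downstream, which reached the gene in that library alone. The Zic5 start region by itself, chr14:122461484-122469995, had 52.5 and 131 CPM, against 44.5 to 71.1 in the eminences. All 14 tested regions were higher in CTX replicate 2 than in CTX replicate 1, with a median log2 difference of 1.41 against -0.05 over all regions tested.

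With both CTX libraries in the fit none of the 4 genes was called against the mean of MGE, LGE and CGE, where 4.51% of all genes were. The log2 fold was 1.59 ± 0.46 for Zic5 (unadjusted p = 0.00949, adjusted p = 0.107), 0.70 ± 0.32 for Zic2 (adjusted p = 0.316), 0.40 ± 0.46 for Zic1 (adjusted p = 0.709) and 0.20 ± 0.39 for Zic4 (adjusted p = 0.840). DESeq2, which called 14.7% of genes, called Zic5 (adjusted p = 0.0394). With the covered-length offset the fold of Zic5 was 0.45 ± 0.25 (adjusted p = 0.509). With only peaks within 1 kb of a start site the fold of Zic5 was 1.09 ± 0.28 (adjusted p = 0.141). Without CTX replicate 1, edgeR called Zic1, Zic4 and Zic5 higher in CTX, at 1.10, 0.84 and 2.33, where 2.43% of genes were called higher. Without CTX replicate 2 it called Zic4 lower, at -0.96 (adjusted p = 0.0238), where 1.53% of genes were called lower, and Zic1 had -1.005 (adjusted p = 0.0637), Zic2 -0.076 (adjusted p = 0.913) and Zic5 0.0095 (adjusted p = 1.00). A single CTX library then stands for its region and is assumed to vary like the other groups.

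Of the 14 regions 1 was called in this contrast with all libraries, where 14.9% of all regions were. It was chr14:122449400-122456810, which overlaps Gm5089 and the end of Zic5 and of which 300 bases are shown above. It had 59.99 and 122 CPM in CTX and 36.1 to 45.0 CPM in the eminences, so that both CTX libraries lay above all 6 GE libraries, with a log2 fold of 1.25 ± 0.23 (adjusted p = 0.0149). It was the only one of the 14 without overlap between CTX and the eminences, where 10.8% of all regions lay above in this way. The call was lost with an offset for covered length (log2 fold 0.76, adjusted p = 0.0535) and, at nearly the same log2 fold of 1.24, without MGE replicate 1 (adjusted p = 0.0532) or CGE replicate 2 (adjusted p = 0.0543). Without CTX replicate 1, 11 of the 14 were called higher in CTX, against 12.7% of all regions. Without CTX replicate 2, 6 were called lower, against 10.4%, and 1 higher, against 16%, which was again chr14:122449400-122456810. Among the named regions not called with all libraries, the Zic5 start region had a log2 fold of 0.80 ± 0.31 (adjusted p = 0.141), the Zic2 region 0.63 ± 0.30 (adjusted p = 0.230) and chr14:122488818-122491948, beyond Zic2, 0.61 ± 0.26 (adjusted p = 0.174). The regions at chr14:122415810-122417113 and chr14:122401770-122407821 had 0.66 ± 0.61 and 0.07 ± 0.32.

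**Figure D3:**
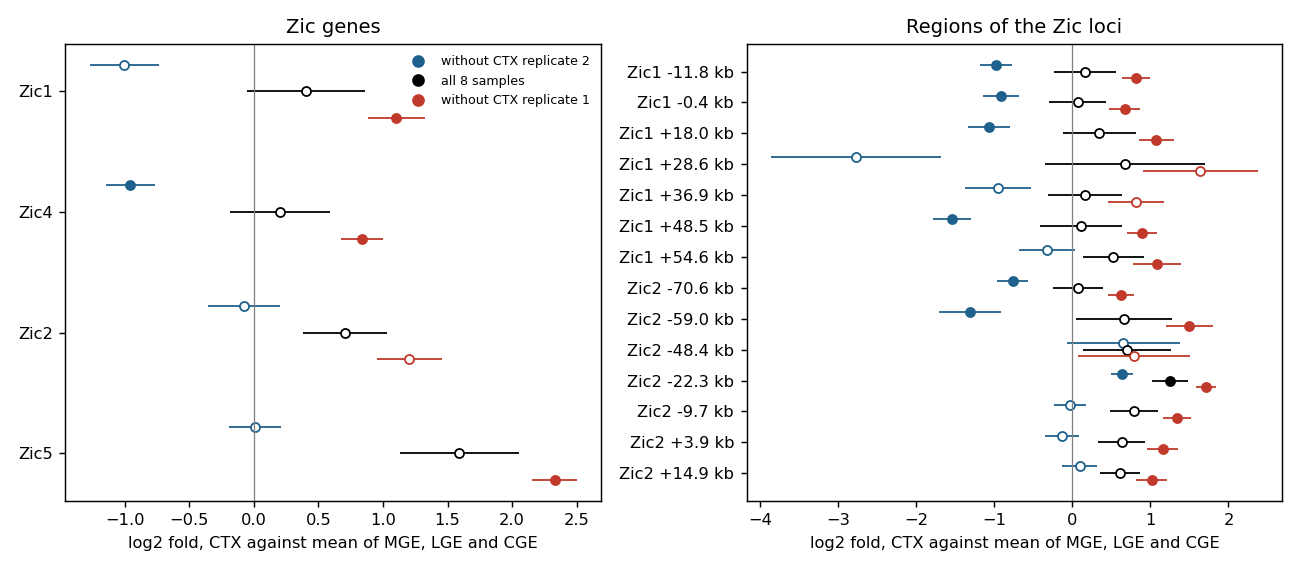
Log2 fold of CTX against the mean of MGE, LGE and CGE (x axis) with its standard error for the 4 genes (left) and the 14 regions, named by their distance from the Zic1 or Zic2 start (right), with all libraries (black), without CTX replicate 1 (red) and without CTX replicate 2 (blue), filled where the adjusted p was 0.05 or less. For Zic1 and Zic4 the red and blue points lie on opposite sides of 0, and the region 22.3 kb before the Zic2 start is filled in all 3 fits.

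The nuclei classes of CTX replicate 2 differed in their Zic counts. Zic1 reached 328 CPM in the meningeal, mural or mesenchymal-like cluster 9 and 320 CPM in the hem-like cluster 8, and was 192 CPM in cluster 6, 160 in the glutamatergic-like cluster 4, 80.03 in the endothelial-like cluster 11 and 76.4 in the unnamed cluster 10. The start region that Zic1 shares with Zic4 gave the same order for the first 4 of these, with 233 CPM in cluster 9, 193 in cluster 8, 124 in cluster 6 and 105 in cluster 4. Zic5 was highest in cluster 8, at 387 CPM, followed by 273 in cluster 6, 217 in cluster 9, 171 in cluster 11 (51 nuclei) and 117 in cluster 4. Each of these values is a sum over 1 library, with no replicate. Cluster 6 held most of the counts by its size, with 72.1% of the Zic1 and 78.5% of the Zic5 counts, while cluster 9 held 6.16% and 3.12%.

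Both the listed dorsal midline genes and the listed meningeal genes had their highest sum in this library. The 14 hem and dorsal midline genes summed to 1164 CPM in this library, while CTX replicate 1 had 528 and the eminences 447 to 662, and 10 of the 14 were highest in CTX replicate 2. The 11 meningeal genes summed to 422 CPM, 261 and 263 to 363, and 4 of the 11 were highest in CTX replicate 2, with Lum at 0 in at least 1 library. Of all genes tested 14.2% were highest in that library. Without the nuclei of cluster 9 the Zic1 level of CTX replicate 2 was 199 CPM, and without clusters 8 and 9 it was 185 CPM. Zic5 was then 268 and 255 CPM, Zic4 290 and 272 CPM and Zic2 246 and 242 CPM. Both values stayed above the highest GE library for Zic2, Zic4 and Zic5. For Zic1, with 194 CPM in the highest GE library, the first did and the second did not. In the glutamatergic-like nuclei Zic1 was 160 CPM in CTX replicate 2 (534 nuclei of cluster 4) and 43.3 CPM in CTX replicate 1 (3848 nuclei of cluster 5). The first value includes the added downstream peak, and the start region alone had 105 and 44.6 CPM. Different clusters held this class in the 2 libraries.

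Within the GABAergic neuron-like cluster 1, with Lhx6 and Nkx2-1 among its leading genes, Zic1 and Zic4 kept the order of MGE over LGE over CGE. The cluster held 3315 and 2026 nuclei of the MGE libraries but 153 and 66 of LGE and 240 and 276 of CGE, whose GABAergic-like nuclei lay mostly in cluster 2. In cluster 1 Zic1 was 123 and 184 CPM in MGE, 70.7 and 82.0 in LGE and 40.9 and 54.7 in CGE. Zic4 was 243 and 249 CPM, 117 and 170, and 68.2 and 104. In cluster 2, which had under 50 nuclei of either MGE library, Zic1 was 104 and 107 CPM in LGE and 51.6 and 60.7 in CGE. Cluster 1 in CTX replicate 1 (182 nuclei) had 23.8 CPM of Zic1 and 38.1 of Zic4. In the glutamatergic-like cluster 4 Zic1 was 71.5 and 74.4 CPM in LGE and 41.4 and 46.7 in CGE. In the progenitor-like cluster 0 it was 116 and 140 CPM in LGE and 54.4 and 60.3 in CGE, while the few MGE nuclei of that cluster (152 and 66) had 121 and 137 CPM and overlapped with LGE. Most MGE progenitor-like nuclei lay in cluster 3, with 126 and 211 CPM. The Zic1 values of MGE replicate 2 include the added downstream peak. The start region alone had 122 and 131 CPM in cluster 3 of MGE. In cluster 0 it had 114 and 81.2 CPM in MGE and 106 and 134 in LGE. In cluster 1 it had 121 and 130 CPM in MGE, 67.1 and 81.5 in LGE and 39.5 and 55.9 in CGE. In the GABAergic neuron-like cluster 7 MGE did not lie above LGE. There the start region had 83.9 CPM in MGE replicate 1 (65 nuclei), 73.5 and 123 in LGE and 38.6 and 45.4 in CGE. MGE replicate 2 had under 50 nuclei of that cluster. 

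Progenitor-like nuclei were compared with neuron-like nuclei within each of the 6 GE libraries, since no CTX library held 50 of both. Zic5 was higher in the progenitor-like nuclei in 6 of 6 libraries. It had 73.5 against 52.0 CPM in MGE replicate 1, 61.1 against 37.9 in MGE replicate 2, 75.7 against 35.7 in LGE replicate 1, 93.0 against 41.4 in LGE replicate 2, 56.3 against 22.9 in CGE replicate 1 and 64.2 against 28.5 in CGE replicate 2. The mean log2 difference was 0.96 ± 0.31 (SD, n = 6). Zic1 and Zic4 were also higher in 6 of 6, by 0.28 ± 0.14 and 0.23 ± 0.15, and Zic2 in 5 of 6, by 0.35 ± 0.21. In MGE replicate 1 the differences of Zic1 and Zic4, which share their start region, were 0.059 and 0.021. The share of all genes higher in 6 of 6 libraries was not computed, so whether these counts are particular to the Zic genes is not known. An exact two-sided sign-flip test gave p = 0.0312 for Zic1, Zic4 and Zic5, the smallest that 6 libraries allow, and p = 0.0625 for Zic2. Over the 7 features tested the adjusted p was 0.0729 for the first 3 and 0.0875 for Zic2, so none passed.

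**Figure D4:**
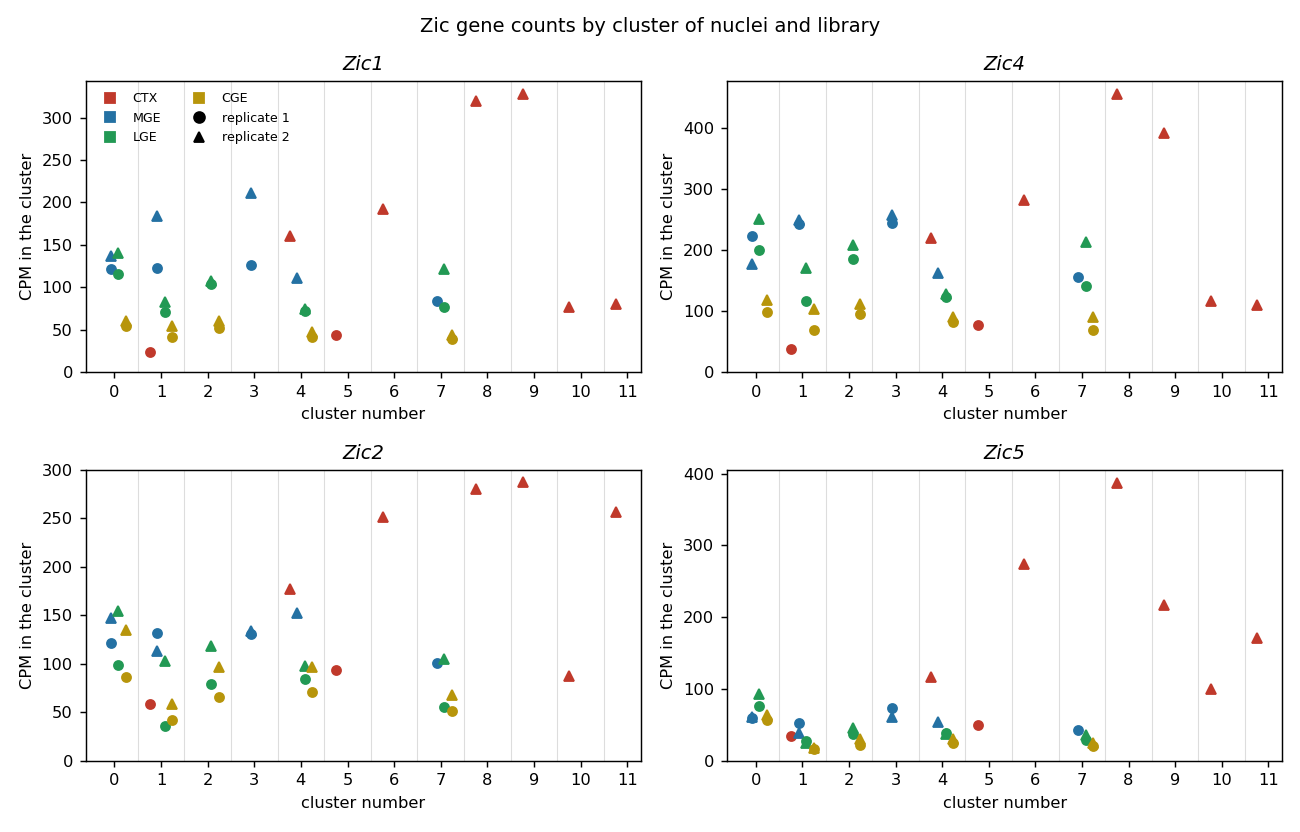
CPM of each Zic gene (y axis) in each cluster of nuclei (x axis) and library, for clusters with at least 50 nuclei of that library, with colours for regions, circles for replicate 1 and triangles for replicate 2. Clusters 8 and 9 of CTX replicate 2 lie highest for Zic1, clusters 6 and 8 for Zic5, and within cluster 1 CGE lies below MGE for Zic1 and Zic4.

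The called region downstream of Zic5 also differed between the classes. In progenitor-like nuclei it had 44.1 and 52.7 CPM in MGE (cluster 3), 52.5 and 50.2 in LGE and 64.7 and 63.9 in CGE (cluster 0). In the GABAergic neuron-like clusters 1 and 2 it had 12.2 to 25.5 CPM over the 6 GE libraries. In CTX replicate 2, where it made up 47.2% of the Zic5 count, it had 181 CPM in the hem-like cluster 8 and 127 in cluster 6. Cluster 9 of that library had 84.4 CPM, cluster 10 50.5, the glutamatergic-like cluster 4 38.5 and the endothelial-like cluster 11 23.6. In the glutamatergic-like cluster 5 of CTX replicate 1 the region had 60.8 CPM.

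A further region of this locus, chr14:122436161-122437669 in Gm5089, was singled out after its values were seen and had another pattern. Of the regions of the locus without a peak in all 8 libraries it had the highest mean CPM. It had a peak in 6 libraries and none in MGE, with 10.8 and 12.01 CPM in CTX, 3.65 and 1.72 in LGE and 3.81 and 2.17 in CGE. A library without a peak has no count there, so the MGE level was not measured. In each of the 5 libraries with a peak there and at least 50 nuclei of the glutamatergic-like cluster 4, its CPM was highest in that cluster. In CTX replicate 2 it had 52.5 CPM there (314 counts) and 8.93 CPM in the larger cluster 6 (542 counts). In LGE it had 17.3 and 11.6 CPM in cluster 4 against at most 1.51 in the other clusters, and in CGE 13.4 and 6.16 against at most 2.15. In the glutamatergic-like cluster 5 of CTX replicate 1 it had 11.0 CPM. The region downstream of Zic5, in contrast, had lower values in cluster 4 than in the progenitor-like nuclei of LGE and CGE, at 18.9 to 30.4 CPM. No test was run on these values by cluster.

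In the Zic1 and Zic4 locus the region chr9:91417815-91418970, in Gm29478, was likewise singled out after its values were seen. CTX replicate 2 had 23.1 CPM there, CTX replicate 1 had 2.14 and no GE library had more than 1.47, with no peak in LGE replicate 1. Within CTX replicate 2 it had 36.6 CPM in the hem-like cluster 8, 23.9 in cluster 6, 18.2 in cluster 10, 8.70 in cluster 4, 7.999 in cluster 9 and 4.72 in cluster 11. The meningeal, mural or mesenchymal-like nuclei, which had the highest Zic1 CPM, thus lay below clusters 8 and 6 here. The values of clusters 10, 4, 9 and 11 rest on 18, 52, 22 and 4 counts, too few to rank these clusters.

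The motif counts add up, for each motif, the counts in peaks that hold it. Neither the ZIC1 nor the ZIC4 motif passed the test between regions. The ZIC1 motif had 1082.5 and 871 CPM, relative to all motif counts, in CTX, 824 and 1363 in MGE, 785 and 940 in LGE and 1015 and 1301 in CGE. The ZIC4 motif ranged from 1750 in LGE replicate 1 to 2913 in MGE replicate 2. For both motifs MGE replicate 2 was the highest library and MGE replicate 1 the second lowest, so the MGE libraries alone spanned most of the range. Neither motif was called in any of the 4 contrasts, nor was any of the 579 motifs, which is 0% of them (edgeR, smallest adjusted p of these motifs 0.507). An unadjusted p under 0.05 was reached by 126 motifs for CTX against the eminences and by neither of these motifs in any contrast. DESeq2 called 90, 8, 4 and 4 motifs (15.5%, 1.38%, 0.691% and 0.691%) in the contrasts of CTX with the eminences, MGE with LGE, MGE with CGE and LGE with CGE, and neither of these motifs among them. The ZIC1 and ZIC4 motifs moved together over the 8 libraries, with r = 0.987.

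The motif levels moved with the number of peaks called in a library, which was lowest in LGE replicate 1, at 103633, and highest in CGE replicate 2, at 182638. Over 8 libraries Pearson's r of the ZIC1 motif with that number was 0.716 and Spearman's rho 0.738, and without the 2 libraries farthest from the median number r was 0.442. For the ZIC4 motif they were 0.680, 0.667 and 0.302. The values are a description of libraries that share regions. In each eminence replicate 2 had more peaks and higher levels of both motifs than replicate 1, while CTX replicate 2 had fewer peaks and lower levels. Within an eminence the number of peaks and the replicate number cannot be told apart. Progenitor-like and neuron-like nuclei of a library had nearly equal levels of both motifs, with mean log2 differences of -0.01 ± 0.03 for ZIC1 and -0.02 ± 0.03 for ZIC4 (SD, n = 6, exact p = 0.281 and 0.125).

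**Figure D5:**
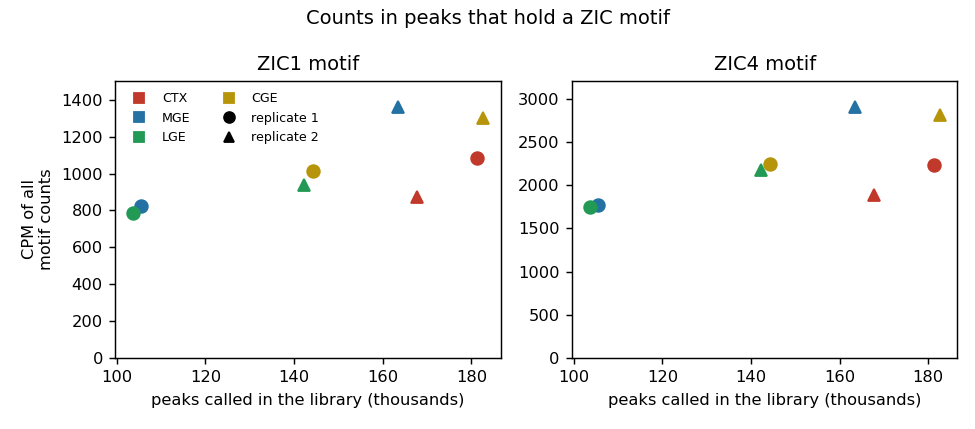
CPM of the ZIC1 and ZIC4 motifs, relative to all motif counts (y axis), against the number of peaks called in the library, in units of 1000 (x axis), with colours for regions, circles for replicate 1 and triangles for replicate 2. For ZIC1 the MGE libraries lie at 824 and 1363, and LGE replicate 1 alone lies below them, at 785.

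The related genes were taken from 6 lists. Of 6 GLI superfamily genes, which include the hedgehog effectors Gli1, Gli2 and Gli3, 0 were called in CTX against the eminences, with a median log2 fold of 0.18 against 0.00 over all genes. Of 14 holoprosencephaly and midline genes 2 rose and 3 fell in CTX, where 3.65% of all genes rose and 0.858% fell. Those that fell were Six3, a forebrain homeobox gene (log2 fold -1.90 ± 0.26, adjusted p = 0.0131), Shh, the ventral ligand (-0.89 ± 0.14, adjusted p = 0.0182), and Ptch1, the hedgehog receptor (-0.63). Those that rose were the hedgehog co-receptors Cdon (1.35 ± 0.14, adjusted p = 0.00812) and Boc (0.67). Of 14 dorsal midline and hem genes 2 rose, Wnt3a, a hem signal (1.33 ± 0.18, adjusted p = 0.0113), and Bmp6, a bone morphogenetic protein (1.05 ± 0.09, adjusted p = 0.00702), with a median of 0.68 over the list. Of 8 rostral patterning and septal genes Lhx2, which selects cortex over hem, rose (0.75 ± 0.14, adjusted p = 0.0293) and Nkx2-1, the MGE selector, fell (-1.91 ± 0.21, adjusted p = 0.00813). Of 11 meningeal genes Dcn, a proteoglycan of fibroblasts, rose (1.81 ± 0.29, adjusted p = 0.0194), and of 6 Cajal-Retzius genes 0 were called. Between the eminences Shh and Nkx2-1 were the only listed genes called, both higher in MGE than in LGE (1.84 and 3.69), as 0.0691% of genes were, and Nkx2-1 also than in CGE (3.67), as 0.0576% were. With the covered-length offset none of these was called, with folds of 1.04 for Shh (adjusted p = 0.503) and 1.71 for Nkx2-1 (0.0993) against LGE and 1.78 for Nkx2-1 against CGE (0.139). With single libraries left out the folds stayed at 1.71 to 1.98 for Shh and at 3.35 to 3.95 for Nkx2-1. Shh was then not called without MGE replicate 1, LGE replicate 1 or LGE replicate 2 (adjusted p = 0.133, 0.198 and 0.0924), nor with the replicate block (0.0540). Nkx2-1 was not called against LGE without LGE replicate 1 or 2 (0.0579 and 0.0525), nor against CGE without CGE replicate 1 or 2 (0.107 and 0.0971). With start-site peaks Shh had 4.35 (0.288).

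Most of the calls of listed genes in CTX against the eminences were lost when covered length entered the fit. With the covered-length offset, of the 8 genes given with an adjusted p for this contrast, Six3 alone was still called. The folds of Cdon, Wnt3a and Bmp6 turned negative, and Lhx2 had 0.049 (adjusted p = 0.943), Dcn 0.96 (0.157), Nkx2-1 -1.205 (0.0653) and Shh -0.86 (0.0873). With only peaks within 1 kb of a start site Shh, Dcn, Wnt3a and Bmp6 were not called (adjusted p = 0.641, 0.0876, 0.485 and 0.910), at folds of -0.96, 2.28, 3.01 and 0.10, so that the fold of Bmp6 alone was smaller than with all peaks. Shh and Dcn also lost the call without CGE replicate 2 (adjusted p = 0.0523 and 0.0588), at folds of -0.87 and 1.80. Lhx2 lost it in 7 of 14 alternatives, among them the replicate block (fold 0.75, adjusted p = 0.0511) and single LGE, CGE or CTX libraries left out (folds 0.61 to 0.77).

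The folds of these genes had the same direction without either CTX library. Without CTX replicate 1 and without CTX replicate 2 in turn, Six3 had -1.535 and -2.40, Shh -1.04 and -0.76 and Nkx2-1 -1.73 and -2.11. Cdon had 1.14 and 1.53, Wnt3a 1.61 and 1.00, Bmp6 0.99 and 1.11, Dcn 2.17 and 1.325 and Lhx2 0.88 and 0.61. All were called in both fits except Lhx2 without CTX replicate 2 (adjusted p = 0.0506).

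The genes whose level over the 8 libraries was most like that of a member, sharing no peak with it, were named by Pearson's r of log2(CPM + 1) among 17357 genes. For Zic4 they were Lysmd4 (r = 0.978), Usp44 (0.976) and Nog (0.965), which encodes the BMP antagonist noggin, and for Zic1 Lysmd4 (0.962), Usp44 (0.949) and AI464131 (0.948). For Zic2 they were Sh3bp4 (0.985), Sp8 (0.975), a zinc finger gene of the rostral patterning list, and Mrpl3 (0.973), and for Zic5 Crybg2 (0.983), Aldoa (0.977) and Axin2 (0.974), a target of Wnt signalling. Without the 2 libraries farthest from the member's median r was 0.884 to 0.972 for the first 3 members and 0.563 to 0.858 for Zic5. Zic1 and Zic4 themselves correlated at 0.977 and Zic2 and Zic5 at 0.904. These values rank genes over few libraries in which CTX replicate 2 stood apart, and they carry no test.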

How the data were processed

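Nuclei of 8 wild-type embryonic brain samples were profiled by single-nucleus ATAC-seq. The deposited values were peak counts per nucleus and counts per motif, made by the authors with Cell Ranger ATAC 1.2.0 against mm10 (GRCm38), with peaks called in each sample separately. Most counts are even, as both ends of a fragment are counted. Library totals were 77387940 to 138873845 counts, and p-values rest on 2 libraries per region. No column of values was left unused.

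Peaks of the 8 samples were merged, and regions with a peak in all 8 (68274) were tested. Counts of peaks over a gene body or the 2000 bp upstream were summed per gene, and counts were summed per sample. edgeR 4.0.16 (R 4.3.3) fitted 1 quasi-likelihood model to all samples with TMM scaling and filterByExpr, with an adjusted p of 0.05 or less as a call. DESeq2 1.42.0 was an alternative. The models were tested on simulated data. A motif and a listed gene that were tested with the rest are not reported here. Fold changes are from the fit, and printed CPM are relative to the counts of the tested regions, of genes or of motifs. The values per covered kb of a whole locus are relative to the counts in all peaks.

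Nuclei were clustered by latent semantic indexing of TF-IDF values (30 components, 20 neighbours, Leiden resolution 0.5, leidenalg 0.10.2, scikit-learn 1.9.0), with the 14 tested Zic regions left out. Clusters were named from marker lists by a scoring rule set after values were seen, and no doublets were removed. Classes were compared by an exact sign-flip test. Named were the 4 genes, regions over a member's start or called in a contrast, the 3 other regions per locus with the highest mean CPM, the 3 most alike genes per member, and up to 3 called genes per list. The members and lists were chosen with earlier results of these data known. Alternatives covered scaling, filter, tool, replicate block, covered length, start-site peaks, single libraries left out, the eminence samples alone, all merged regions, clustering resolution and pseudocount.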

Additional observations from a re-analysis of the deposited data

Results flagged for a closer look

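The log2 difference between progenitor-like and neuron-like nuclei in the ZIC4 motif level was small in every library, and its sign differed between the eminences. It was -0.0097 and -0.064 in MGE, -0.026 and -0.033 in LGE and, barely above 0, 0.0016 and 0.0066 in CGE. The mean log2 difference was lower in MGE than in CGE by a value of -0.0409 and in LGE than in CGE by -0.0337. These differences between regions were not tested.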

How the results depend on the processing

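Of 177 recomputed counts of Zic features called, 165 stayed within 1.5 times the reported count. Many of these were 0 in fits that called no feature at all, as for regions in LGE against CGE with any 1 library left out. Such counts say nothing of stability. In CTX against the eminences the reported 1 called region became 0 with the covered-length offset and 0 to 11 with 1 library left out, 11 without CTX replicate 1 and 7 without CTX replicate 2. The 0 called genes became 1 with DESeq2 and 0 to 3 with 1 library left out. In MGE against CGE the 0 called regions became 1 with DESeq2, 4 with the eminence samples alone and 0 to 4 with 1 library left out. Of 912 recomputed values of named features 823 kept direction and side of the threshold, and 43 changed sign. With those that changed sign counted in, 34 became calls and 22 lost one. Over all features, DESeq2 called 2630 genes and 15780 regions in CTX against the eminences, where edgeR called 782 and 10160. The edgeR fit with the covered-length offset called 10 of 16259 genes tested and 6260 regions.

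With the covered-length offset the log2 fold in CTX against the eminences turned to -0.041 for Zic1, -0.30 for chr9:91413495-91415175, -0.80 for Cdon, -0.23 for Wnt3a and -0.034 for Bmp6. It turned to -0.22 for Zic1, -0.033 for Zic4 and -0.31 for Zic2 in MGE against LGE, and to -0.10 for Zic5 and 0.19 for chr14:122449400-122456810 in MGE against CGE. The cause was not tested.

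With 1 library left out, folds in CTX against the eminences ranged from -1.005 to 1.10 for Zic1, -0.96 to 0.84 for Zic4, -0.076 to 1.205 for Zic2 and 0.0095 to 2.33 for Zic5. They ranged from -0.77 to 0.62 for chr14:122401770-122407821, -1.31 to 1.498 for chr14:122415810-122417113, -0.028 to 1.34 for chr14:122461484-122469995, -0.13 to 1.16 for chr14:122470856-122487896, -0.98 to 0.82 for chr9:91349924-91358196, -0.91 to 0.67 for chr9:91358808-91372066, -1.07 to 1.07 for chr9:91376779-91390745, -2.77 to 1.64 for chr9:91391467-91397353, -0.95 to 0.81 for chr9:91398750-91406757, -1.54 to 0.89 for chr9:91413495-91415175 and -0.32 to 1.09 for chr9:91419865-91420979. For Zic2 they were -0.10 to 0.59 in MGE against LGE and -0.13 to 0.57 in LGE against CGE, and for Zic5 -0.35 to 0.059 in MGE against LGE. Motif folds ranged from -0.21 to 0.091 for ZIC1 and -0.24 to 0.030 for ZIC4 in CTX against the eminences, from -0.089 to 0.67 and -0.18 to 0.57 for ZIC1 and ZIC4 in MGE against LGE, and from -0.49 to 0.26 and -0.52 to 0.23 in MGE against CGE. In the class comparison 5 libraries cannot reach p of 0.05, so leaving 1 out says nothing of stability.

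Replicate numbers were not taken to pair the samples, since the labels tie them to no shared litter or batch and the correlations of same-numbered deviations between groups ran from -0.03 to 0.49, with 3 of 6 over 0.1. The share of odd counts nevertheless differed between the numbers, so a technical set that follows the number cannot be told apart from it. With the replicate block 1 Zic region was called in CTX against the eminences, as without it, and 599 genes were called in all. Under the block the log2 fold turned to -0.026 for chr14:122401770-122407821, -0.058 for chr9:91358808-91372066, -0.047 for chr9:91391467-91397353 and -0.094 for chr9:91413495-91415175, none of them called.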
